A study of Mus musculus with 12 samples.

Results

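The microRNAs described here are the 3p products of a pair of related gene clusters: miR-23a-3p and miR-27a-3p from the a cluster, miR-23b-3p and miR-27b-3p from the b cluster, and miR-24-3p, which both clusters encode. They were taken by name from the table of all samples, and all 5 of 5 were found among its 616 listed microRNAs. Small RNA was sequenced from 12 libraries of embryonic gonads of CD1 mice. They cover primordial germ cells (PGC), the precursors of eggs and sperm, and gonadal somatic cells (SC), from female and male embryos on embryonic days 11.5, 12.5 and 13.5 (E11.5 to E13.5). Each of the 12 combinations of cell type, sex and day has 1 library and no replicate, so each cell type has 6 libraries. No treatment or mutant allele is named in the labels. Gonads were pooled after the mesonephros had been removed, PGC were taken out with magnetic beads against CD15, and SC are what remained, so SC can hold any other cell type of the gonad.

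MicroRNAs are cut from hairpin precursors, each of which can give a 5p and a 3p arm, and they pair with messenger RNAs mainly through the seed, bases 2 to 8 from the 5′ end, which lowers the output of those messengers. Members of a family share a seed and so largely share targets, while members of a cluster come from 1 transcript and can belong to different families. The miR-23, miR-27 and miR-24 clusters are known for high levels in endothelial cells and in many other somatic tissues.

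On the GRCm38.p6 assembly the a cluster lies on the plus strand of chromosome 8, from 84208518 to 84208921, and its 3 hairpins (Mir23a, Mir27a and Mir24-2) span 404 bases. The b cluster lies on the plus strand of chromosome 13, from 63300484 to 63301275, and its 3 hairpins (Mir23b, Mir27b and Mir24-1) span 792 bases. The b cluster is inside the span of Aopep, a protein-coding gene (chromosome 13, 62964893 to 63326096). RefSeq sequences were matched for 4 of the 5 members, all but miR-23b-3p. They are shown because the families and the difference between the copies rest on them, with the seed in capitals:
miR-23a-3p: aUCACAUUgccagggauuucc
miR-27a-3p: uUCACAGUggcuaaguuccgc
miR-27b-3p: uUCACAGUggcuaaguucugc
miR-24-3p: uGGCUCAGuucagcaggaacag
Among these 4 sequences the seed UCACAGU is shared by miR-27a-3p and miR-27b-3p, and the seeds of miR-23a-3p (UCACAUU) and miR-24-3p (GGCUCAG) differ from it and from each other. The seed of miR-23b-3p was not compared, because its sequence was not matched. Over their 21 bases, miR-27a-3p and miR-27b-3p differ by 1 substitution, C19U, written with the miR-27a-3p base first and counted from 1 at the 5′ end. A read that stops before position 19 fits both miR-27 copies, and the handling of such reads is not given in the sources used here. Whether short reads also fit both miR-23 copies was not checked, since miR-23b-3p has no matched sequence here. For miR-24-3p the mature sequence is the same from Mir24-2 and Mir24-1, so its reads cannot be assigned to a cluster.

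The libraries held 166804 to 1768825 microRNA reads, fewest in the E12.5 PGC libraries. Levels are given as reads per 1000000 microRNA reads (RPM). On this scale the smallest deposited value, 5 reads, corresponds to 2.83 to 29.98 RPM, and a value of 0 means fewer than 5 reads. The defining markers of PGC, 12 arms of the miR-290 cluster (among them miR-292a-5p and miR-293-3p), summed to 70430 to 140986 RPM in 5 PGC libraries, but to 2329 RPM, with 3 of the 12 arms at 0, in the library labelled PGC female E11.5; in SC they summed to 244 to 5994 RPM, with 2 to 5 arms at 0. That library therefore goes against its label in level. It was still above SC of its own day, at 336 RPM (female) and 244 RPM (male), with 5 arms at 0 in each. The PGC means, the fitted differences between PGC and SC and between days in PGC, the tests of ratios and the correlations are given with and without it, and values of single libraries can be read without it. The gonadal somatic markers miR-202-5p and miR-202-3p summed to 154 to 19053 RPM in SC and 155 to 3054 RPM in PGC. Both endothelial markers (miR-126a-3p and miR-126a-5p) summed to 16088 to 37105 RPM in SC, to 51442 and 27782 RPM in PGC of E11.5 (female and male), and to 4670 to 11230 RPM in the 4 later PGC libraries. The 9 mesenchymal markers (led by miR-199a-3p and miR-143-3p) summed to 71700 to 118895 RPM in SC, to 85852 and 59929 RPM in PGC of E11.5, and to 8405 to 27432 RPM in the later PGC libraries, where 3 of the 4 had 1 arm at 0. Erythroid (miR-451a, miR-486a-5p), muscle (miR-1a-3p, miR-206-3p) and liver (miR-122-5p) markers reached at most 2206, 1498 and 4280 RPM in any library, and in the later PGC libraries they reached at most 186, 56 and 43 RPM.

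Together the 5 microRNAs made up 1.65 to 3.84% of the microRNA reads. The share was 1.72 to 2.55% in SC, 1.65 to 2.38% in PGC of E11.5 and E12.5, and 3.84% (female) and 3.75% (male) in PGC of E13.5. The E13.5 PGC pair was thus above every other library.

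miR-27b-3p was the most abundant of the 5, at 14848 ± 6202 RPM in PGC and 11038 ± 1957 RPM in SC (SD, n = 6 each, as for all means below). miR-24-3p followed at 6872 ± 2052 RPM in PGC and 5773 ± 965 RPM in SC, then miR-23b-3p at 2501 ± 1015 and 1235 ± 294 RPM. miR-27a-3p averaged 1224 ± 1367 RPM in PGC and 782 ± 131 RPM in SC, and miR-23a-3p 892 ± 195 and 747 ± 187 RPM. Without the library labelled PGC female E11.5 the PGC means (SD, n = 5) were 15658 ± 6569 RPM for miR-27b-3p, 7074 ± 2226 RPM for miR-24-3p, 2735 ± 935 RPM for miR-23b-3p, 1316 ± 1508 RPM for miR-27a-3p and 905 ± 215 RPM for miR-23a-3p, the same order. The mature forms with a sequence here are 21 or 22 bases long, so their RPM were compared without a correction for length. The order miR-27b-3p, miR-24-3p, miR-23b-3p, miR-23a-3p held in 12 of 12 libraries at each step. miR-23a-3p and miR-27a-3p were not separated: miR-23a-3p was the higher in 6 of 12 libraries.

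The step from miR-27b-3p to miR-24-3p carries a limit. The reads taken back from the deposited values were even numbers for miR-27b-3p in 12 of 12 libraries. Of 285 microRNAs above 0 in all 12 libraries it was the only 1 with even reads throughout, and among 494 above 0 in at least 6 libraries miR-669a-3p was the only other, over its 6 libraries. Across those 494 microRNAs 50.6% of the values above 0 were even, and the other members were even in 10 (miR-23a-3p), 9 (miR-27a-3p), 9 (miR-23b-3p) and 8 (miR-24-3p) libraries. With the reads of miR-27b-3p halved, it was above miR-24-3p in 6 of 12 libraries and above miR-23b-3p in 12 of 12. Whether each of its reads was counted more than once was not tested.

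**Figure D1:**
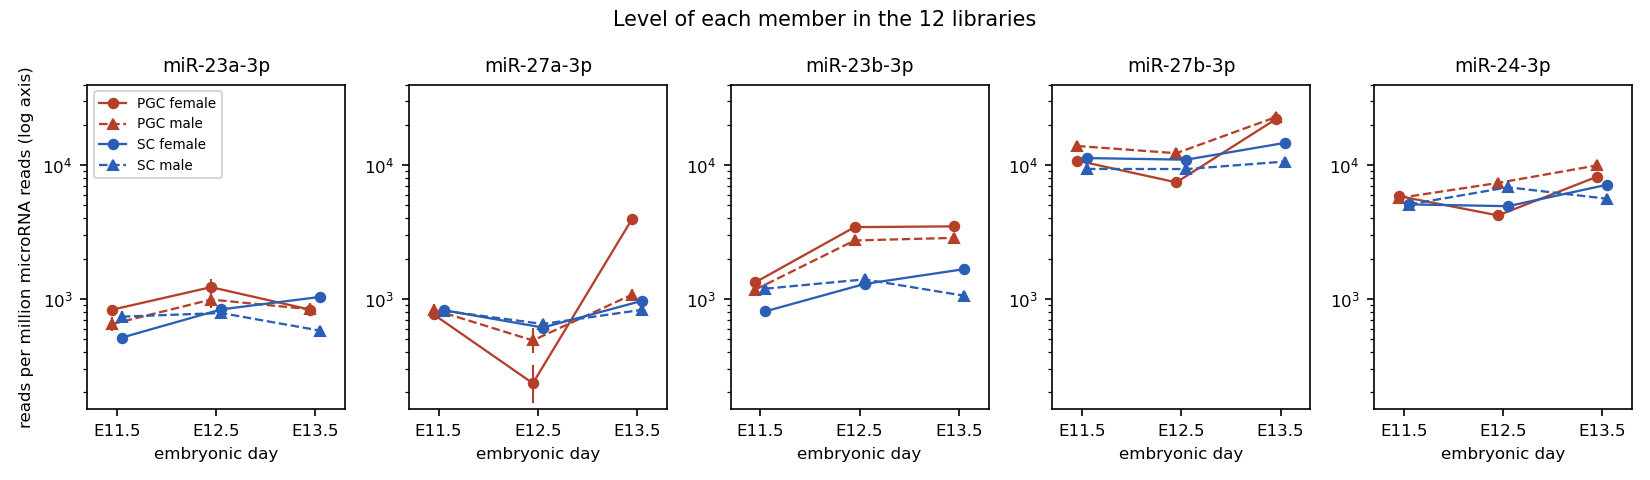
Level of each of the 5 microRNAs in RPM (log axis) against embryonic day, 1 point per library, red for PGC and blue for SC, circles with solid lines for female and triangles with dashed lines for male. Vertical lines are exact 95% binomial intervals and cover counting error only. In PGC of E12.5 and E13.5 miR-23b-3p lies at 2731 to 3482 RPM, above every SC library, and miR-27a-3p reaches 3951 RPM in PGC female E13.5.

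In PGC, miR-23b-3p stood at 1330, 3435 and 3482 RPM in females from E11.5 to E13.5, and at 1174, 2731 and 2855 RPM in males. In SC, over the same days, it stood at 806, 1292 and 1665 RPM in females and 1191, 1398 and 1056 RPM in males. The 4 PGC libraries of E12.5 and E13.5 were above all 6 SC libraries, and both E11.5 PGC libraries were within the SC range. In PGC of both sexes miR-23a-3p, the partner from the other cluster, also rose from E11.5 to E12.5. It was lower again at E13.5. miR-23a-3p read 829, 1223 and 830 RPM in female PGC on the 3 days and 647, 988 and 836 RPM in male PGC. In SC it read 513, 833 and 1035 RPM in females and 736, 784 and 579 RPM in males, so PGC and SC overlapped.

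miR-27b-3p was at 10797, 7422 and 21940 RPM in female PGC from E11.5 to E13.5, and at 13890, 12260 and 22776 RPM in male PGC. In SC it was at 11273, 10969 and 14670 RPM in females and 9355, 9332 and 10630 RPM in males, and PGC of E13.5 were the only libraries above that range. miR-27a-3p, which has the same seed, was the most variable member in PGC. In female PGC it read 765 RPM at E11.5, 234 RPM at E12.5 (39 reads, 95% interval 166 to 320 RPM) and 3951 RPM at E13.5 (1700 reads). In male PGC it read 829, 489 (90 reads, 393 to 601 RPM) and 1076 RPM. SC values were 823, 610 and 966 RPM in females and 815, 649 and 828 RPM in males. The female E13.5 PGC library was far above the SC range, the male one just above it, and both E12.5 PGC libraries were below it.

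miR-24-3p, the product of both clusters, read 5863, 4203 and 8195 RPM in female PGC by day and 5670, 7352 and 9950 RPM in male PGC. In SC it read 5085, 4926 and 7131 RPM in females and 5072, 6823 and 5600 RPM in males. PGC and SC overlapped, with both E13.5 PGC libraries and the male E12.5 one above all SC libraries.

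The a and b copies were compared within each library, where the ratio of a pair of rows does not depend on the scaling of the library. miR-23b-3p was above miR-23a-3p in 12 of 12 libraries. In SC the ratio of miR-23a-3p to miR-23b-3p was nearly constant, 0.605 ± 0.041, with a range of 0.548 to 0.645 over both sexes and all 3 days. In PGC it was 0.623, 0.356 and 0.238 in females from E11.5 to E13.5, and 0.551, 0.362 and 0.293 in males. The E11.5 PGC libraries thus lay in the SC range and the 4 later ones below it. As a share of the reads of both copies, miR-23a-3p made up 38.4% (95% exact binomial interval 36.5 to 40.3%) in PGC female E11.5 and 19.2% (17.5 to 21.1%) in PGC female E13.5. In males the share was 35.5% (32.2 to 39.0%) and 22.7% (20.5 to 24.9%). In SC it was 35.4 to 39.2%. The intervals cover counting error only, since copies made by PCR cannot be told from separate molecules here.

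Over the 6 pairs of the same day and sex, the log2 ratio of miR-23a-3p to miR-23b-3p was lower in PGC in 6 of 6 pairs, by a mean of -0.66 (SD 0.50). The exact two-sided sign-flip permutation test gave p = 0.03125, the smallest that 6 pairs allow, and 0.0625 after Benjamini-Hochberg adjustment over both ratios, which did not pass 0.05. Without the female E11.5 pair the mean was -0.79 (exact permutation p = 0.0625, the smallest that 5 pairs allow). The smallest p needs the same sign in every pair. At E11.5 the 95% intervals of the miR-23a-3p share overlapped between PGC and SC. They were 36.5 to 40.3% against 36.9 to 40.9% in females, and 32.2 to 39.0% against 35.4 to 41.0% in males. From E11.5 to E13.5 the log2 ratio changed by -1.39 (female) and -0.91 (male) in PGC and by -0.04 and -0.17 in SC. These are values of single pairs of libraries, of which the female PGC pair rests on the library that goes against its label, and the difference between the cell types in this change was not tested. The PGC libraries with the ratio of SC, those of E11.5, are also those with endothelial and mesenchymal marker sums of the SC order (27782 to 51442 RPM and 59929 to 85852 RPM). The part of those cells in the ratio was not tested. The male E11.5 PGC library, at 0.551, carried 70430 RPM of the miR-290 cluster, and the later PGC libraries carried 96611 to 140986 RPM.

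**Figure D2:**
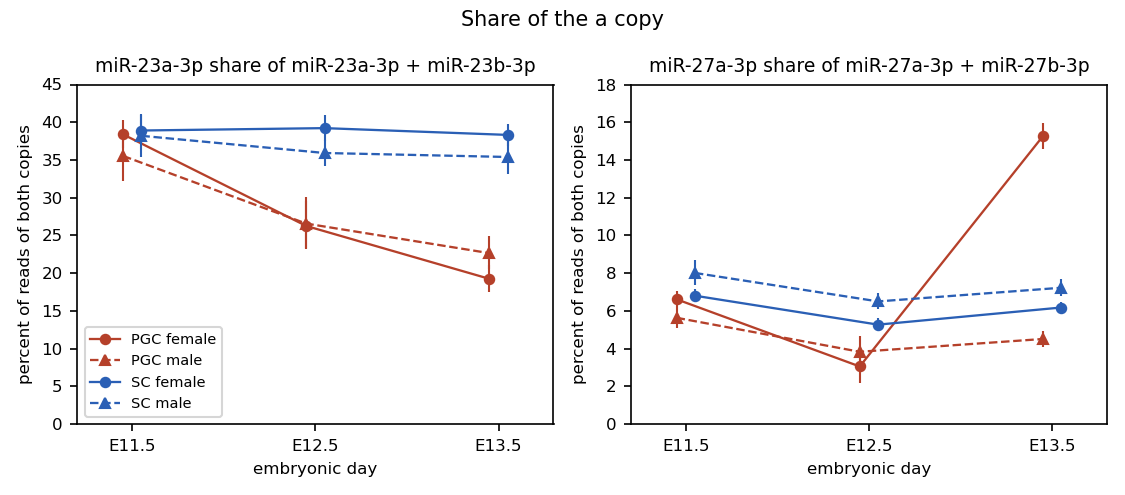
Share of miR-23a-3p in the reads of miR-23a-3p and miR-23b-3p (left) and of miR-27a-3p in those of miR-27a-3p and miR-27b-3p (right), in percent, against embryonic day, 1 point per library with its exact 95% binomial interval. The miR-23a-3p share stays at 35.4 to 39.2% in SC and reads 38.4 and 35.5% at E11.5 against 19.2 and 22.7% at E13.5 in PGC, while the miR-27a-3p share is 15.3% in PGC female E13.5 and 3.05 to 8.01% elsewhere.

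miR-27b-3p was above miR-27a-3p in every library by a wider margin. The ratio of miR-27a-3p to miR-27b-3p was 0.0715 ± 0.0107 in SC (0.0556 to 0.0871). In PGC it was 0.0708, 0.0315 and 0.180 in females by day, and 0.0597, 0.0399 and 0.0472 in males. The female E13.5 library was the only 1 above the SC range, and the E12.5 pair and the male E13.5 library were below it. The mean log2 difference between PGC and SC was -0.25 (SD 0.88), lower in 5 of 6 pairs (exact two-sided permutation p = 0.53125, the same after adjustment), or -0.29 without the female E11.5 pair (exact permutation p = 0.5625). From E11.5 to E13.5 the log2 ratio changed by 1.35 in female and -0.34 in male PGC, and by -0.15 and -0.16 in female and male SC. With the miR-27b-3p reads halved the median ratio in SC was 0.143 in place of 0.0713. In PGC female E13.5 the halved reads gave 0.360, above the miR-23 ratio of 0.238, so the wider margin did not hold there. Between the sexes, the mean log2 difference (female minus male) was 0.05 (SD 0.19, higher in 4 of 6 pairs) for miR-23 and 0.17 (SD 0.89, higher in 2 of 6) for miR-27. The exact permutation p was 0.5625 and 0.9375, and the adjusted p was 0.9375 for both. Without the E11.5 PGC pair the differences were 0.02 and 0.15 (exact permutation p = 0.875 and 1).

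Members of 1 cluster did not keep a fixed proportion either. In the a cluster, the ratio of miR-27a-3p to miR-23a-3p ran from 0.732 to 1.60 in SC and from 0.191 (PGC female E12.5) to 4.76 (PGC female E13.5) in PGC. In the b cluster, the ratio of miR-27b-3p to miR-23b-3p ran from 6.68 to 14.0 in SC and from 2.16 (PGC female E12.5) to 11.8 (PGC male E11.5) in PGC. Across the 12 libraries the members were related to different degrees, and no difference between these relations was tested. Pearson's r of log2(RPM + 1) was 0.77 between miR-23a-3p and miR-23b-3p and 0.78 between miR-27a-3p and miR-27b-3p, against -0.32 between miR-23a-3p and miR-27a-3p and 0.37 between miR-23b-3p and miR-27b-3p. miR-24-3p, whose hairpins lie in both clusters, was closest to miR-27b-3p (0.84), the highest of the 10 pairs, and reached 0.60 with miR-27a-3p, 0.45 with miR-23b-3p and 0.12 with miR-23a-3p. Over the 11 libraries without the one labelled PGC female E11.5, r was 0.78, 0.79, -0.32 and 0.36 for the first 4 pairs, and 0.84, 0.60, 0.45 and 0.13 for those of miR-24-3p. Between miR-24-3p and miR-27b-3p r was 0.91 within PGC alone and 0.39 within SC alone. Within SC miR-24-3p was closer to miR-23b-3p (0.69) and miR-23a-3p (0.56), and the highest of the 10 pairs was miR-23a-3p with miR-23b-3p (0.96). These are descriptions over 12 libraries that share cell types, days, sexes and depth, and copies of a family with like sequences may also share reads.

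Differences between groups were fitted across all 513 microRNAs with a mean deposited value of at least 5, with limma on log2(value + 1) and Benjamini-Hochberg adjustment over all 513. Each comparison was made on both the deposited scale and the RPM scale (equal totals), because the scaling differs between the cell types. The deposited size factors were 1.08 to 1.58 in PGC and 0.614 to 1.15 in SC. Deposited values still summed to 105730 to 897730 per library in PGC and to 695210 to 2158040 in SC. In every pair of the same day and sex the PGC sum was the lower. Deposited differences between PGC and SC hold this difference in totals, which equal totals remove. All 513 microRNAs had a median log2 difference of -2.57 between PGC and SC as deposited and of -0.74 at equal totals.

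PGC were compared with SC as 6 pairs of the same day and sex. On the deposited scale 4 of the 5 members were lower in PGC and none was higher, where 77.2% of all tested microRNAs were lower and 84.2% were called in either direction. The members' median of -1.96 was nearer to 0 than the median of all. miR-23a-3p had deposited values of 129 to 744 in PGC and 512 to 1522 in SC, and its log2 difference was -1.96 ± 0.63 (SE, limma adjusted p = 0.00767, lower in 6 of 6 pairs). miR-24-3p had deposited values of 444 to 5263 in PGC and 3526 to 10973 in SC, a log2 difference of -2.02 ± 0.63 (limma adjusted p = 0.00640, 6 of 6 pairs). The differences were -1.90 ± 0.63 for miR-27b-3p (limma adjusted p = 0.0101, 6 of 6 pairs) and -2.13 ± 0.71 for miR-27a-3p (limma adjusted p = 0.00965, 5 of 6 pairs). miR-23b-3p, with deposited values of 363 to 1355 in PGC and 828 to 2450 in SC, had -1.30 ± 0.61 (limma adjusted p = 0.0522, 6 of 6 pairs) and did not pass; without the female E11.5 pair it was -1.45 and passed (limma adjusted p = 0.0294). Without that pair the other 4 passed too, with -2.24 for miR-23a-3p, -2.21 for miR-24-3p, -2.01 for miR-27b-3p and -2.28 for miR-27a-3p (limma adjusted p = 0.00532 to 0.0239). Without both E12.5 PGC libraries, or without both E13.5 SC libraries, 1 of the 5 passed.

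At equal totals the fitted difference was above 0 for all 5, though not every pair went that way. miR-23b-3p was higher in PGC by 0.93 ± 0.28 on the log2 scale (limma adjusted p = 0.0278, higher in 5 of 6 pairs), and was the only 1 of the 5 to pass, where 13.5% of the 513 microRNAs were higher and 39% were called in either direction. Without the female E11.5 pair the difference was 0.97 (limma adjusted p = 0.0254). The call was lost without any 1 library of E12.5 or E13.5, where the difference was 0.83 to 0.92 (limma adjusted p = 0.0688 to 0.0909), and without the pairing, at 0.93 (limma adjusted p = 0.0604). The other 4 did not pass. miR-27b-3p had 0.34 (95% interval -0.27 to 0.95, higher in 4 of 6 pairs) and miR-23a-3p 0.27 (-0.36 to 0.89, 4 of 6). miR-24-3p had 0.21 (-0.33 to 0.75, 5 of 6) and miR-27a-3p 0.09 (-0.80 to 0.98, 3 of 6). Without the female E13.5 pair miR-27a-3p had -0.30. The members' median was 0.27 beside -0.74 for all 513. In fractions like these, fewer cells of a type and less RNA per cell cannot be told apart.

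**Figure D3:**
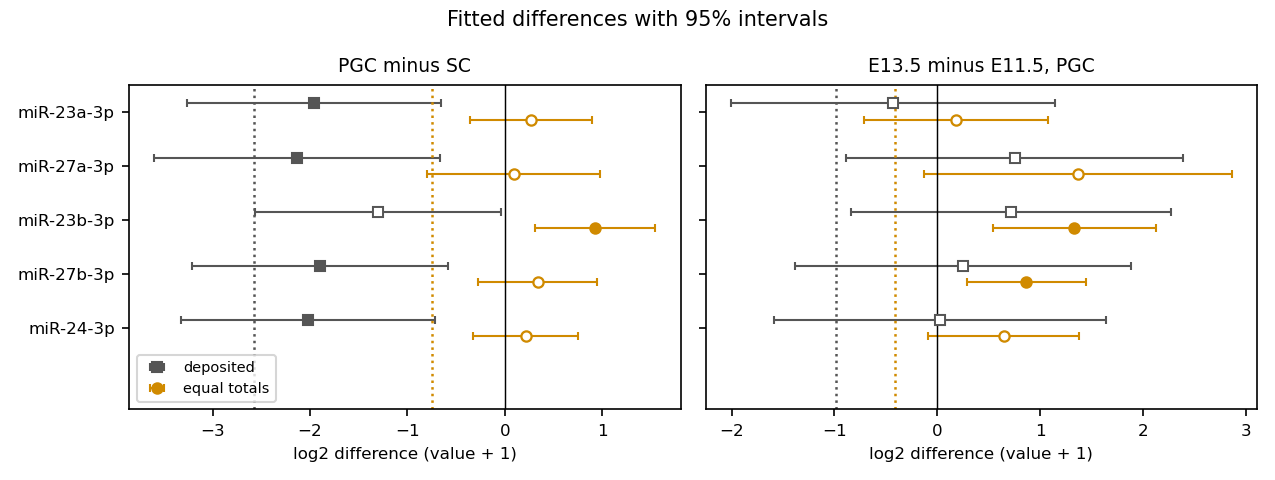
Fitted log2 differences of the 5 microRNAs with 95% intervals, PGC minus SC (left) and E13.5 minus E11.5 within PGC (right), as grey squares on the deposited scale and orange circles at equal totals; filled marks have a limma adjusted p under 0.05, marks with a white centre do not, and dotted lines are the medians of all 513 microRNAs on each scale. All 5 members lie at or below -1.30 for PGC minus SC on the deposited scale and between 0.09 and 0.93 at equal totals.

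Within PGC, E13.5 was compared with E11.5 with sex as a further term. At equal totals both b copies rose. miR-23b-3p rose by 1.33 ± 0.34 on the log2 scale (SE, limma adjusted p = 0.0233) and miR-27b-3p by 0.87 ± 0.24 (limma adjusted p = 0.0349), each in both sexes. These were 2 of the 5 members, where 7.41% of all tested microRNAs were higher and 28.8% were called in either direction. Neither a copy passed: miR-27a-3p had 1.37 ± 0.63 (limma adjusted p = 0.160), and miR-23a-3p had 0.19 ± 0.38 (limma adjusted p = 0.763). miR-24-3p had 0.65 ± 0.31 (limma adjusted p = 0.175). Both calls were lost without the library labelled PGC female E11.5, with little change in size: miR-23b-3p then had 1.27 (limma adjusted p = 0.133) and miR-27b-3p 0.88 (limma adjusted p = 0.155). They were also lost without any 1 of the other 3 PGC libraries of E11.5 and E13.5. miR-27a-3p turned on the E13.5 libraries: it had 0.14 without the female one (limma adjusted p = 0.878), and 2.60 without the male one (limma adjusted p = 0.0288), where it passed. Without any 1 of the E11.5 and E12.5 SC libraries the call of miR-23b-3p held and that of miR-27b-3p was lost (limma adjusted p = 0.0587 to 0.0641), with both differences as before. The endothelial and mesenchymal marker sums were higher in both E11.5 PGC libraries than in the E13.5 ones, and their part in these differences was not tested. On the deposited scale 0 of the 5 passed, and 0 were under an unadjusted p of 0.05, where 32.9% of all 513 passed. The values there were 0.72 (miR-23b-3p), 0.25 (miR-27b-3p), 0.75 (miR-27a-3p), 0.03 (miR-24-3p) and -0.43 (miR-23a-3p). They moved widely with single E11.5 libraries: miR-23b-3p had 1.38 without the female E11.5 PGC library and 0.048 without the male one.

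In SC no member passed the test of E13.5 against E11.5. By limma 0 of the 5 passed on the deposited scale (10.9% of all 513 were called) and 0 at equal totals (7.99%), with log2 differences of 0.13 (miR-27a-3p) to 0.44 (miR-23b-3p) at equal totals. The difference between the PGC and SC changes was tested as well. It was 0.90 (95% interval -0.23 to 2.02) for miR-23b-3p at equal totals (limma adjusted p = 0.331) and -0.15 for miR-23a-3p (-1.41 to 1.12). Again 0 of the 5 passed, where 0.78% of all 513 were called as deposited and 0% at equal totals. So the change of miR-23b-3p in PGC was not shown to differ from that in SC.

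No member passed the test of female against male libraries. By limma 0 of the 5 passed in PGC, where 0.39% of all tested microRNAs were called as deposited and 0% at equal totals, and 0 passed in SC, where the shares were 1.17% and 0%. At equal totals the female minus male log2 difference ran from -0.38 (miR-27b-3p) to 0.27 (miR-23b-3p) in PGC and from -0.04 (miR-24-3p) to 0.32 (miR-27b-3p) in SC. In the comparisons of day within SC, of the changes and of the sexes, 0 of the 5 were under an unadjusted p of 0.05 on either scale, and voom, limma's fit for read counts, called 0 as well. The gap of miR-27a-3p between female (3951 RPM) and male (1076 RPM) E13.5 PGC is a single pair of libraries with no replicate.

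Of 9 other products of these hairpins, 7 were listed in the table: the 5p arms of the 6 hairpins, and miR-3074-5p, which is read from the opposite strand of the miR-24 hairpins. The arms that bear on the results are shown with the seed in capitals, because they tell which cluster a hairpin product came from:
miR-27a-5p: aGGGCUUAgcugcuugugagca
miR-27b-5p: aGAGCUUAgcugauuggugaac
miR-24-2-5p: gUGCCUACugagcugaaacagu
miR-24-1-5p: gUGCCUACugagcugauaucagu
miR-24-2-5p and miR-24-1-5p share their first 16 bases and part after them, so unlike miR-24-3p they can be told apart by longer reads. miR-24-2-5p, of the a cluster, was above 0 in 11 of 12 libraries, at 58 to 269 RPM in SC and 0 to 179 RPM in PGC. miR-24-1-5p, of the b cluster, was above 0 in 5 of 12 libraries and reached at most 12.7 RPM. The b cluster 5p arm of miR-24 was thus the scarcer, while among the 3p arms of miR-23 and miR-27 the b copy was the more abundant.

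The 5p arms of miR-27 were also in the reverse order to the 3p arms. miR-27a-5p read 479, 378 and 614 RPM in female PGC by day and 822, 451 and 548 RPM in male PGC. In SC it read 687, 650 and 1198 RPM in females and 1032, 743 and 29.8 RPM in males. It was therefore near the level of miR-27a-3p in most libraries, with a ratio of 5p to 3p of 0.834 to 1.27 in 5 SC libraries and 0.0360 in SC male E13.5. miR-27b-5p was far below its 3p arm, at 46 to 107 RPM in SC and 62 to 228 RPM in PGC, with a ratio of 0.00435 to 0.0115 in SC and 0.00549 to 0.0186 in PGC. miR-27a-5p exceeded miR-27b-5p in 11 of 12 libraries. In PGC female E13.5, where miR-27a-3p stood at 3951 RPM, miR-27a-5p stood at 614 RPM and the ratio of the arms was 0.155, the lowest of the PGC libraries.

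The remaining arms were scarce. miR-23a-5p was above 0 in 3 libraries (16 reads over all libraries) and miR-23b-5p in 7 (73 reads). By summed reads, near the floor, the miR-23 5p arms were thus in the order of their 3p arms, unlike those of miR-27. miR-3074-5p was above 0 in 7 libraries, of which 6 were the SC libraries (9.45 to 32.7 RPM). The PGC libraries in which miR-3074-5p was at 0 have floors of 11.6 to 30.0 RPM, of the order of its SC levels. At E12.5 and in female E13.5 the floor was above the SC level of the same day and sex, so a lower level in PGC was not detectable. In males the floor was below it at E11.5 (11.6 against 32.7 RPM) and at E13.5 (12.7 against 16.4 RPM), so PGC read lower in these single pairs. The 95% interval of that E13.5 SC value, 9.54 to 26.2 RPM, holds the floor. In female E11.5 miR-3074-5p read 18.8 RPM in PGC and 17.5 RPM in SC. By limma, 5 of the 7 listed arms were above the filter, miR-23b-5p and miR-3074-5p only through SC, and these are not compared. The other 3 (miR-27a-5p, miR-27b-5p and miR-24-2-5p) were lower in PGC than in SC on the deposited scale, where 77.2% of all 513 microRNAs were. At equal totals 0 of the 3 passed and 0 were under an unadjusted p of 0.05, where 25.5% of all 513 were lower. For E13.5 against E11.5 in PGC 0 of the 3 passed on either scale, and 0 were under an unadjusted p of 0.05.

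**Figure D4:**
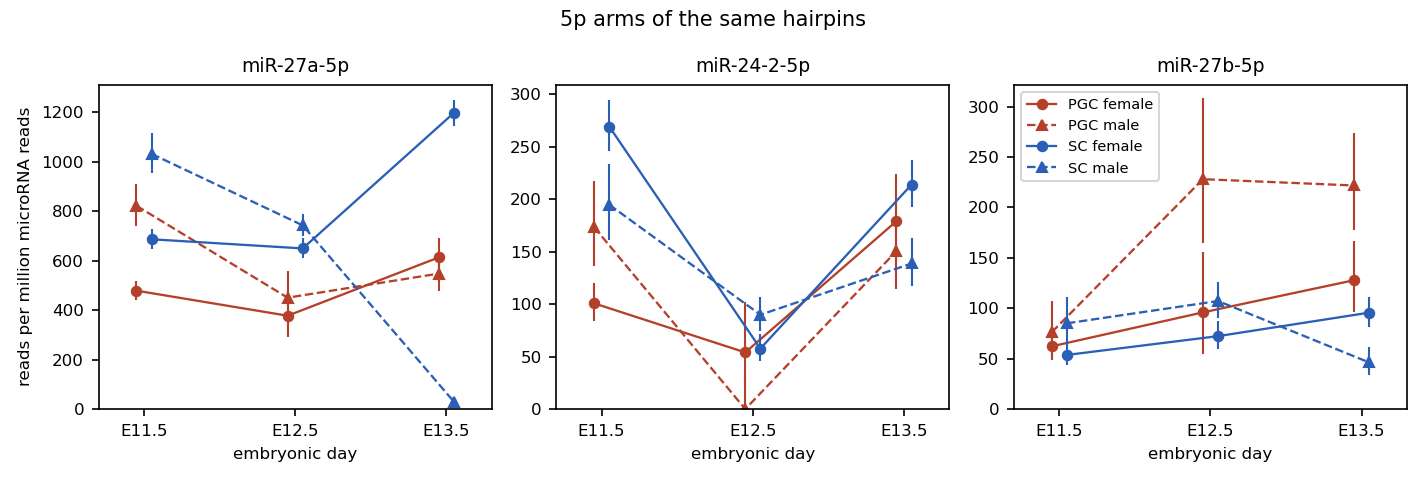
Levels of miR-27a-5p, miR-24-2-5p and miR-27b-5p in RPM (linear axes that differ between panels) against embryonic day, 1 point per library, colours and marks by cell type and sex. Vertical lines are exact 95% binomial intervals (for the value of 0, the line runs up to the floor of 5 reads). miR-27a-5p is at 29.8 RPM in SC male E13.5 beside 1198 RPM in SC female E13.5, and miR-24-2-5p is lowest at E12.5 in both cell types.

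For each member the 3 other microRNAs with the most similar level over the 12 libraries were taken from 267 that were above 0 in every library with a mean of at least 50 RPM, by Pearson's r of log2(RPM + 1). miR-23b-3p had the closest match of all members, miR-30c-5p (r = 0.92), followed by miR-204-5p (0.89) and miR-5121 (0.88). Within PGC alone r was 0.88, 0.90 and 0.73, and within SC it was 0.79, 0.12 and 0.91. miR-27b-3p was most like miR-203-3p (0.86), miR-194-5p (0.84) and miR-181d-5p (0.83). miR-27a-3p was most like miR-101a-3p (0.79), miR-181d-5p (0.74) and miR-106b-5p (0.73), so miR-181d-5p was near to both miR-27 copies. miR-23a-3p was most like miR-676-3p (0.81), miR-221-3p (0.77) and miR-690 (0.76), and miR-24-3p like miR-135a-5p (0.76), miR-30b-3p (0.76) and miR-194-5p (0.74). No microRNA was among the closest 3 of both miR-23 copies. Without the library labelled PGC female E11.5 the same 3 were closest to each of the 5 members. These values describe libraries that share cell types, days and depth.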

How the data were processed

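Small RNA of 12 mouse gonad libraries was sequenced by the submitters on a MiSeq. Per the submitters' processing notes, FastQC, Trim Galore, Bowtie 1.1.2, GRCm38 and DESeq were used; the counting step and annotation release: not given in the sources used here. Values were deposited as a normalized signal, counts per mature microRNA that the authors divided by 1 size factor per library. All values were 0 or whole multiples (tolerance 1e-06) of the smallest value of the library divided by 5, so reads were taken back by that step. The smallest value was taken as 5 reads, and a depth would scale with that choice. RPM are reads over the library's microRNA reads.

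Libraries were grouped by the labels. limma 3.58.1 in R 4.3.3 (empirical Bayes with trend) was fitted on log2(value + 1), filter of a mean of at least 5, adjusted p under 0.05, with the day-by-sex pair as a block for PGC against SC (5 residual degrees of freedom), and day and sex as terms within each cell type otherwise (4). With 1 library per combination, p-values reflect the spread among these 12 libraries alone, and the labels do not say that a pair came from the same pool of gonads. Fold changes on this scale understate those of low microRNAs. The a to b ratios used exact sign-flip permutation. Intervals of RPM and of shares are exact binomial (Clopper-Pearson) at 95%. The fits were tested on simulated data. Sequences and places are from RefSeq tables of GRCm38.p6.

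The members, lists (other arms, and PGC, gonadal somatic, endothelial, mesenchymal, erythroid, muscle and liver markers) and tests were chosen with earlier results of these data known. Named microRNAs are the 5 members, the other products of their hairpins, the 3 most similar microRNAs per member, and the 2 most abundant of each marker list (1 for liver). Alternatives were other pseudocounts, filters and scalings, voom, libraries left out, no pairing, and copies summed.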

Additional observations from a re-analysis of the deposited data

Results flagged for a closer look

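In groups of 6 libraries, the highest and the lowest library were compared with the nearest other one, as the gap over the whole range. Of 46 such groups 6 had a library past Dixon's 95% critical value. For separate groups of normally distributed values chance gives about 1 in 20. The 46 groups are not separate, since they hold the same microRNAs on both scales and in ratios. Their count cannot be set against that rate. miR-27a-3p in PGC was highest in female E13.5, at 3951 RPM, and miR-27b-3p in SC was highest in female E13.5, at 14670 RPM. Both were past the critical value only in RPM (gap over range 0.773 and 0.636) and not on the log2(RPM + 1) scale (0.461 and 0.582). The log2 flags of miR-27a-5p and miR-24-2-5p below were not past it in RPM (0.531 and 0.301). miR-27a-5p in SC was lowest in male E13.5, at 4.95 on the log2(RPM + 1) scale. In that same library the log2 ratio of miR-27a-5p to miR-27a-3p was lowest, at -4.79, and so was that of miR-27a-5p to miR-27b-5p, at -0.63. These 3 rest on the same 31 reads of miR-27a-5p. miR-24-2-5p in PGC was lowest in male E12.5, at 0 on the log2(RPM + 1) scale, that is fewer than 5 reads or under 27.1 RPM at its depth.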

How the results depend on the processing

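The call of PGC against SC depends on the scaling. On the deposited scale 4 of the 5 members were called lower. At equal totals, under quantile normalization and under voom on the recovered reads 1 was called, and it was higher. The log2 differences were then 0.93, 0.93 and 0.94 for miR-23b-3p, 0.27, 0.19 and 0.27 for miR-23a-3p, 0.21, 0.41 and 0.22 for miR-24-3p, 0.090, 0.023 and 0.25 for miR-27a-3p, and 0.34, 0.29 and 0.35 for miR-27b-3p. With both E12.5 PGC libraries left out, or both E13.5 SC libraries, the count was 1 as deposited and 0 at equal totals. At equal totals it was also 0 without the pairing, and 0 to 1 with single libraries left out. There miR-27a-3p had -0.47 without both E13.5 SC libraries and reached -0.30 with 1 E13.5 female library left out, at most 0.38.

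For E13.5 against E11.5 in PGC the count was 0 on the deposited scale, 2 at equal totals and under voom, and 1 under quantile normalization; at equal totals it was 0 to 2 with single libraries left out. miR-23a-3p had 0.19, 0.44 and 0.17 at equal totals, under quantile normalization and under voom. The sum of miR-23a-3p and miR-23b-3p had 0.39 on the deposited scale. With single libraries left out on that scale miR-23a-3p ran from -1.27 to 0.40, miR-23b-3p from 0.048 to 1.38, miR-24-3p from -1.0001 to 1.06, miR-27a-3p from -0.32 to 1.83 and miR-27b-3p from -0.50 to 1.00. The miR-27 ratio between the sexes ran from -0.18 (without the PGC E13.5 pair) to 0.27 with a pair left out. The PGC means and correlations without the library labelled PGC female E11.5, and halving the miR-27b-3p reads, were chosen after seeing the data. The halving moved the median miR-27 ratio of SC to 0.143. No paired analysis by replicate number was possible because the labels give none. The quasi-likelihood count test that had been planned was not run, since the deposited values are normalized. Depth limits miR-27a-3p most, with 39 and 90 reads in PGC of E12.5.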
